A study of Mus musculus with 4 samples.

Results

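The 40 genes described here mark endothelial cells, the cells that line blood and lymphatic vessels, or one kind of vessel among the others. They were chosen by symbol and all 40 were present among the 32285 genes of the RNA tables. They fell into 8 groups: 8 junction and surface proteins, 6 receptors, 7 transcription factors, 5 secreted proteins, enzymes and others, 3 arterial, 3 capillary, 4 venous and 4 lymphatic genes. The genes were followed through single-nucleus RNA of the thymus and of epigonadal white adipose tissue, and through chromatin accessibility of thymic nuclei, in untreated wild-type C57/BL6 mice on standard chow.

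The RNA data were 1 thymic library, pooled from 6 thymi of 4-month-old males, and 1 library of the epigonadal fat of 4-month-old males, for which the labels give no number of animals. The chromatin data were 1 library pooled from 16 thymi of 6-month-old females, so sex and age both differ between the RNA and the chromatin libraries and cannot be told apart. Thymi had been cleaned of the fat around the capsule and digested, and nuclei came from the floating fraction. The authors' tables assign 365 thymic and 1564 epigonadal nuclei to the labels Ad Ia and Ad Ib, which together are called Ad I here, or to one of 3 labels named Ad IIa, Ad IIb and Ad IIc. The labels came from clustering these same nuclei, so every comparison between labels describes the annotation and was not tested. With 1 library per group there is no replicate check, and all intervals are 95% intervals that cover counting error only.

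Endothelial cells are held together by junction proteins such as VE-cadherin (Cdh5) and claudin-5 (Cldn5). Their identity is maintained by transcription factors of the ETS family (Erg, Fli1, Ets1) and the SOXF family (Sox7, Sox17, Sox18). Arterial endothelium carries ephrin-B2 (Efnb2) and the connexins Gja4 and Gja5, and venous endothelium carries the ephrin receptor Ephb4 and the nuclear receptor Nr2f2 (COUP-TFII). Lymphatic endothelium is specified by Prox1. White fat has a dense capillary bed, and the thymus has capillaries and the postcapillary venules through which lymphocyte precursors enter.

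The 5 promoters that follow belong to members on which the results turn. Cldn5 differed between labels in chromatin and between tissues in RNA, Efnb2 differed by more than 2-fold between the tissues and Emcn by less, and Car4 and Gja5 differed between Ad IIa and Ad IIb. Sequences are from RefSeq on GRCm38.p6, 5′ to 3′ on the strand of the gene, and end just before the gene. Capitals mark the ETS core letters AGGAAG or CGGAAG on either strand. The windows are Cldn5, chr16:18776597-18776846, plus strand; Emcn, chr3:137340828-137341061, plus strand; Efnb2, chr8:8661243-8661492, minus strand; Car4, chr11:84957504-84957753, plus strand; and Gja5, chr3:97032152-97032401, plus strand.
Cldn5: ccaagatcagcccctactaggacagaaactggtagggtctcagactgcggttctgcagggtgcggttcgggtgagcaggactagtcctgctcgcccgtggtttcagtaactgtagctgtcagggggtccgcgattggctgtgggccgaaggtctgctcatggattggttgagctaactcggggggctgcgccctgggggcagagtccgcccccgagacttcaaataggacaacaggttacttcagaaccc
Emcn: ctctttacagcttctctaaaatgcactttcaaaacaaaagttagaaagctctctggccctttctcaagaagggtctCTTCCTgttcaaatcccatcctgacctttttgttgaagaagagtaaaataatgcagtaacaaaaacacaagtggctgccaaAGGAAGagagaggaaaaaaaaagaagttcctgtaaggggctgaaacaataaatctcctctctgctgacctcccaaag
Efnb2: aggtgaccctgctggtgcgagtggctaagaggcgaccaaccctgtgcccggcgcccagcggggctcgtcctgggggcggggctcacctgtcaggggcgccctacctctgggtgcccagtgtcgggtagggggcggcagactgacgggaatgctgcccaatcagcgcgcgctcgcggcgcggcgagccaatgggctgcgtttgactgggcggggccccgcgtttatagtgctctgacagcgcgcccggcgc
Car4: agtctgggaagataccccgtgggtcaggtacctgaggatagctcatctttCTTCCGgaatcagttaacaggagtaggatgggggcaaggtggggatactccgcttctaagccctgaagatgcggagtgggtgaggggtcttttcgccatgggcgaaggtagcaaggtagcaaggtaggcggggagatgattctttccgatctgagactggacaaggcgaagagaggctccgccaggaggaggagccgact
Gja5: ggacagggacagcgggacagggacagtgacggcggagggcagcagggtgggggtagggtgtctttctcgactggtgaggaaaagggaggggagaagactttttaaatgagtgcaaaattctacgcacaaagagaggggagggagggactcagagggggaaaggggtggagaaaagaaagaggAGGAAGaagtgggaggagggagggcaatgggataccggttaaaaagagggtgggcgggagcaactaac
Emcn held 2 ETS matches, 174 and 93 bases before the RefSeq start, which lies inside the deposited gene model where the printed stretch was ended, Car4 and Gja5 held 1 each, and Cldn5 and Efnb2 held none. Over the 250 bases before each start, 15 of the 30 RefSeq entries of 23 members held an ETS match (50%), against 39.2% of all 32851 entries. The SOX letters ACAATG were found in 6.67% of member entries and 10.7% of all, and the GATA letters AGATAA in 3.33% and 9.99%. A match is a description of the letters and not a site of binding. The other 17 members have no entry.

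Depth was low. Labels held between 24582 and 401448 nuclear-encoded unique molecular identifiers (UMIs, 1 per captured RNA molecule) in the thymic library and between 120252 and 1237126 in the epigonadal library. Levels are given as UMIs per 1000000 nuclear-encoded UMIs of a label (CPM). Thymic Ad IIb held the fewest nuclei, 16, with 27020 UMIs. Mitochondrial RNA made up 12.8% to 15.2% of UMIs in the thymic labels and 3.29% to 6.29% in the epigonadal labels. In barcodes without a label it made up 51.2% (thymic) and 10.6% (epigonadal). The libraries shared 147 barcodes, none of them labelled in both.

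The 40 genes together made up 2.13% of nuclear-encoded UMIs in thymic Ad IIa, 2.18% in Ad IIb and 1.76% in Ad IIc. In thymic Ad Ia they made up 0.0434% and in Ad Ib 0.50%. The 3 Ad II labels of the thymus were thus alike in summed endothelial RNA and lay above both Ad I labels. In the epigonadal library the share was 1.71% in Ad IIa and 1.92% in Ad IIb, but only 0.0932% in Ad IIc, below Ad Ia at 0.185% and Ad Ib at 0.400%. Unlabelled barcodes, which can be other cells or empty droplets, were at 0.332% (thymic) and 0.506% (epigonadal).

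**Figure D1:**
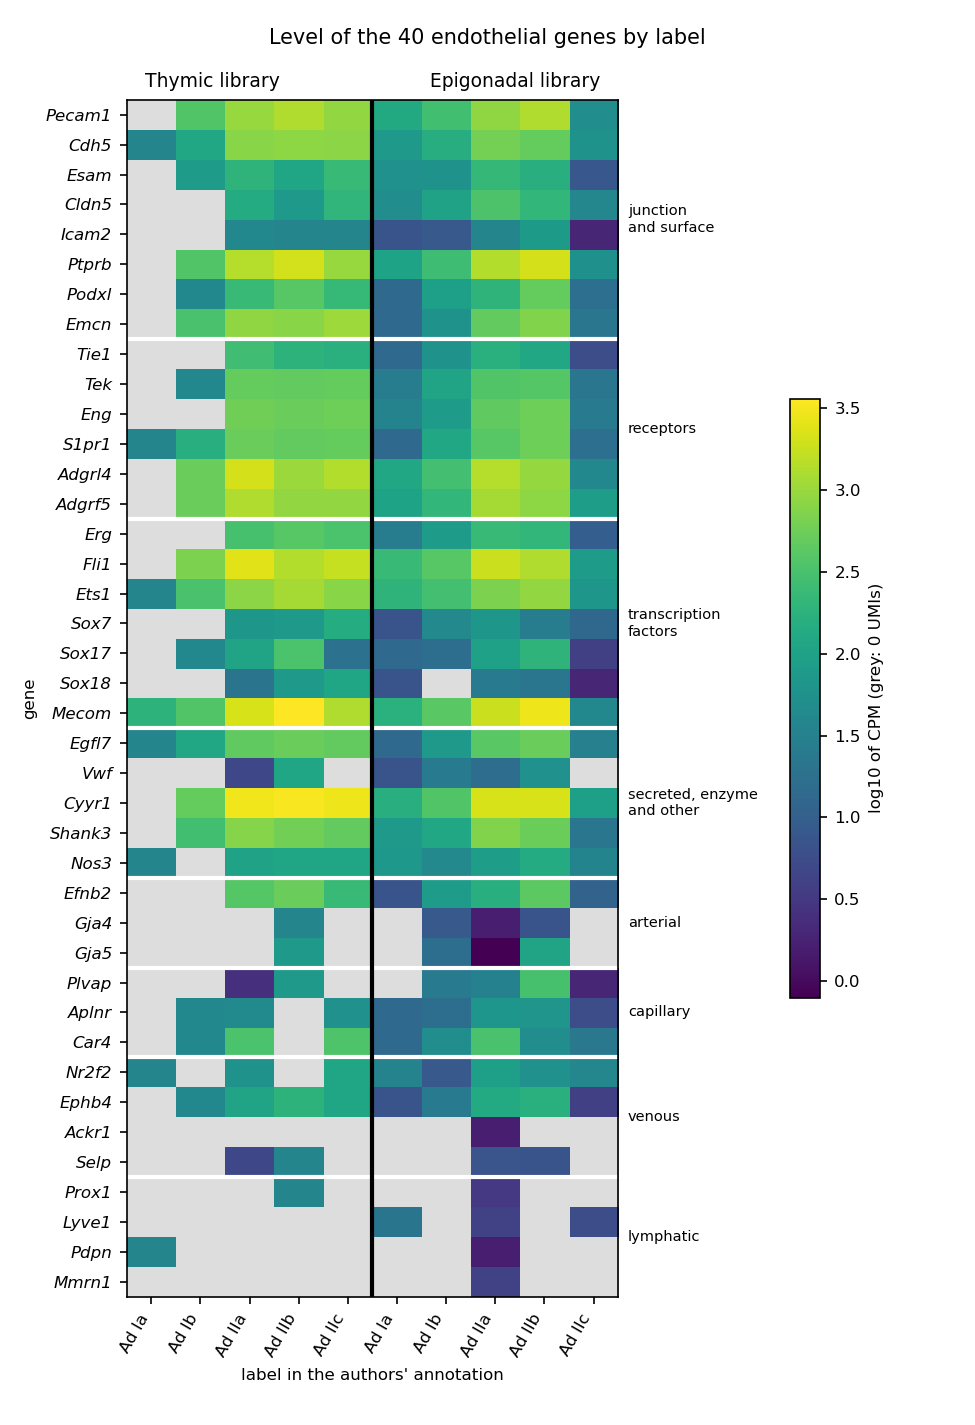
Level of each of the 40 genes (rows, by group) in each label of the thymic and epigonadal libraries (columns), as log10 of CPM; grey marks 0 UMIs. Ad IIa and Ad IIb are high in both libraries, Ad IIc is high in the thymic library only, and the lymphatic rows are nearly empty.

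Ad IIa exceeded Ad I in nearly every member that could be measured. Of the 40 members, 29 had at least 10 UMIs over both thymic labels, and 28 of these were at least 2-fold higher in Ad IIa and none lower. Over all 6095 genes at this depth, 28.2% were at least 2-fold higher and 20.2% lower. Among epigonadal nuclei 30 of 32 members were higher and none lower, against a background of 19.8% higher and 17.5% lower. The median log2 ratio of the members was 2.84 in the thymic library, where all genes were at 0.08, and 2.36 in the epigonadal library, where all genes were at 0.07. In the thymic library 7 members had 0 UMIs in Ad I. With 3 UMIs in place of 0 as a bound, the median was 2.44 and 26 members were higher. Folds given below as at least a value use this bound. They take the other side as observed and so leave out its counting error. By counting error alone, the intervals of 22 of the 29 thymic and 29 of the 32 epigonadal members lay above 0, and 0 lay below. The share of all genes with such intervals was not computed. Most members passed the minimum through their UMIs in Ad IIa, so these counts are a description. Those under the minimum in both libraries were Gja4, Gja5, Ackr1, Selp, Prox1, Lyve1, Pdpn and Mmrn1, and in the thymic library also Sox18, Vwf and Plvap.

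Among the junction and surface genes, 8 of 8 were higher in Ad IIa in both libraries, or 7 of 8 in the thymic library with genes at 0 UMIs at their bound. Cdh5, the adhesive core of the endothelial junction, was at 805 CPM (323 UMIs) in thymic Ad IIa and 76.6 CPM (4 UMIs) in Ad I, a log2 ratio of 3.23 (2.02 to 5.28). Epigonadal Cdh5 was at 628 CPM and 110 CPM, a log2 ratio of 2.49 (1.98 to 3.10). Pecam1, the platelet and endothelial adhesion molecule CD31, was at 986 CPM against 172 CPM in thymic nuclei and at 890 CPM against 201 CPM in epigonadal nuclei. Both genes were thus several times higher in Ad IIa in both tissues. Ptprb encodes VE-PTP, the phosphatase that acts on Cdh5 and Tek, and was at 1395 CPM against 172 CPM in the thymic library. Podxl, a sialomucin of the luminal surface, had 96 UMIs in thymic Ad IIa and 1 in Ad I, a log2 ratio of 3.07 (1.13 to 8.96). Emcn (endomucin), a sialomucin of capillaries and veins, had 359 UMIs and 8 UMIs, a log2 ratio of 2.46 (1.55 to 3.77). The tight junction gene Cldn5 had 57 UMIs in thymic Ad IIa and 0 in Ad I, so that it was at least 2.47-fold higher. Esam, another junctional adhesion molecule, had 76 UMIs and 2 UMIs, a log2 ratio of 1.99 (0.40 to 5.38). Icam2, a ligand of leukocyte integrins, had 16 UMIs and 0 UMIs, which gives no fold at this depth.

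All 6 receptors were higher in Ad IIa in both libraries, with group medians of 3.57 and 2.69 on the log2 scale. With Tie1 and Eng, which had 0 UMIs in thymic Ad I, at their bounds the thymic median was 2.70. Tek (TIE2), the angiopoietin receptor, was at 493 CPM in thymic Ad IIa with 198 UMIs, and had 1 UMI in Ad I. Its co-receptor Tie1 had 109 UMIs and 0 UMIs, at least 4.73-fold higher. Eng (endoglin), a co-receptor for BMP ligands, had 234 UMIs and 0 UMIs, at least 10.2-fold higher, and 459 CPM against 56.9 CPM in the epigonadal library. The 0 UMIs in thymic Ad I allow a level of up to 57.4 CPM, so the Ad I levels of the tissues cannot be told apart for Eng and Tie1. S1pr1, the sphingosine-1-phosphate receptor that stabilises junctions, was at 528 CPM against 95.7 CPM in the thymic library. The adhesion receptors Adgrl4 and Adgrf5 were at 2102 CPM against 249 CPM and at 1333 CPM against 249 CPM.

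Of the 7 transcription factors, 6 were measured in the thymic and 7 in the epigonadal nuclei, and all of these were higher in Ad IIa, except that Sox7 fell short of 2-fold at its thymic bound. Erg, an ETS factor largely restricted to endothelium in adult tissue, had 126 UMIs in thymic Ad IIa and 0 in Ad I, at least 5.47-fold higher, and 238 CPM against 53.1 CPM in the epigonadal library. Fli1, an ETS factor that is also used by blood cells, was at 2466 CPM against 325 CPM in the thymic library. Mecom, a zinc-finger factor of arterial and stem cell programmes, was at 2175 CPM against 268 CPM there. Erg, Fli1 and Mecom thus differed in the same direction in both tissues, with epigonadal log2 ratios of 2.11, 2.59 and 2.68. Ets1, which lymphocytes also express strongly, differed less in the epigonadal library, with 685 CPM against 235 CPM. Thymic Ets1 was at 832 CPM in Ad IIa and at 961 CPM in the unlabelled barcodes. Of the SOXF factors, Sox17 had 43 UMIs in thymic Ad IIa and 1 in Ad I (log2 1.92, −0.07 to 7.82), Sox7 had 27 and 0 (1.17-fold higher at its bound), and Sox18 had 8 and 0. Intervals lay above 0 for 4 of the 6 measured thymic transcription factors, and those of Sox17 and Sox7 included 0. The SOXF genes are short of UMIs at this depth.

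Of the remaining pan-endothelial genes, Cyyr1, which encodes a small membrane protein, was at 3019 CPM in thymic Ad IIa against 230 CPM in Ad I. Egfl7, a secreted factor of the vessel wall, was at 453 CPM against 76.6 CPM, and Shank3, a scaffold protein also known from synapses, at 790 CPM against 134 CPM. All 3 were higher in the epigonadal library as well, with log2 ratios of 3.09 for Cyyr1, 3.25 for Egfl7 and 2.86 for Shank3. Nos3, the endothelial nitric oxide synthase, was at 84.9 CPM against 56.9 CPM in the epigonadal library, a log2 ratio of 0.54 (−0.21 to 1.47). Vwf (von Willebrand factor) was at 16.2 CPM against 15.2 CPM there. These were the 2 epigonadal members that did not reach the 2-fold limit. In the thymic library Aplnr, with 18 UMIs and 1 UMI, did not reach it, and neither did Icam2 and Sox7 at their bounds.

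Markers of other cells differed between the same labels. The 10 adipocyte markers summed to 5302 CPM in thymic Ad I and 414 CPM in thymic Ad IIa, where 9 of 10 were detected and Lep was at 0. Epigonadal sums were 8816 CPM and 5850 CPM, with all 10 detected, 5 of them at least 2-fold lower in Ad IIa and 4 above 0 on the log2 scale. The mural list, markers of pericytes and smooth muscle, summed to 421 CPM in thymic Ad I and 67.3 CPM in Ad IIa, with 5 of 10 detected in each. Pdgfrb, Myh11 and Acta2 were at 0 in both, Kcnj8 and Higd1b in Ad I only, and Cspg4 and Abcc9 in Ad IIa only. The thymic T cell list summed to 517 CPM in Ad I and 291 CPM in Ad IIa (4 of 5 measured genes lower and 1 higher, median −1.86). In the epigonadal library the macrophage list summed to 614 CPM in Ad I and 224 CPM in Ad IIa (5 of 6 measured genes lower), the fibroblast list to 595 CPM and 225 CPM (5 of 6 lower), the mural list to 387 CPM and 213 CPM (4 of 6 lower) and the erythroid list to 584 CPM and 133 CPM (4 of 4 lower). Malat1, a long non-coding RNA kept in the nucleus, made up 1.74% of nuclear-encoded UMIs in thymic Ad IIa and 5.82% in Ad I. In epigonadal nuclei it made up 1.001% and 4.10%. Ribosomal protein genes made up 2.17% and 1.35% in the thymic library, and 3.51% and 1.89% in the epigonadal library. The part of these markers and shares in the result was not tested.

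The endothelial RNA was a property of nearly every Ad IIa nucleus. Nuclei were counted as carrying pan-endothelial RNA when they held a UMI of at least 2 of 12 genes (Pecam1, Cdh5, Ptprb, Erg, Tek, Tie1, Egfl7, Cyyr1, Adgrl4, Adgrf5, Eng and Esam). This held for 230 of 231 thymic Ad IIa nuclei (99.6%, exact binomial interval 97.6% to 100.0%) and for 580 of 590 epigonadal Ad IIa nuclei (98.3%, 96.9% to 99.2%). The median nucleus held 7 of the 12 genes in both. All 16 thymic and all 58 epigonadal Ad IIb nuclei and 33 of 34 thymic Ad IIc nuclei passed, but only 42 of 658 epigonadal Ad IIc nuclei (6.38%). In thymic Ad I, 0 of 35 Ad Ia nuclei passed, which allows a share of up to 10.0%, and 4 of 49 Ad Ib nuclei (8.16%). Those 4 nuclei held 112 of the 123 member UMIs of thymic Ad Ib, so the Ad I level given above for the thymus rests on them. In epigonadal Ad I, 26 of 106 Ad Ia nuclei (24.5%) and 39 of 152 Ad Ib nuclei (25.7%) passed, at median depths of 1077 and 678.5 UMIs.

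Depth differed between the labels, with median UMIs per nucleus, mitochondrial ones included, of 1696 in thymic Ad IIa, 604 in Ad Ia and 442 in Ad Ib. Nuclei were therefore thinned to 500 nuclear-encoded UMIs each, which left out 4 of 231 thymic and 18 of 590 epigonadal Ad IIa nuclei, and 18 of 35 thymic Ad Ia nuclei. Of the thymic Ad IIa nuclei left, 219 of 227 still held 2 of the genes (96.5%), as did 511 of 572 epigonadal ones (89.3%). In thymic Ad Ia 0 of 17 did, which allows a share of up to 19.5%, and in epigonadal Ad IIc 16 of 599 (2.67%). In epigonadal Ad I, 6 of 104 Ad Ia nuclei (5.77%) and 18 of 130 Ad Ib nuclei (13.8%) did. The separation between Ad IIa and Ad Ia or epigonadal Ad IIc was thus present at equal depth. In thymic Ad Ib only 9 of 49 nuclei had 500 nuclear-encoded UMIs, and 4 of these passed. The thinned shares thus do not set the Ad I nuclei of the tissues apart.

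The same nuclei differed between the tissues in adipocyte RNA. A UMI of at least 1 of Adipoq, Plin1, Cidec, Lipe and Retn was found in 67 of the 230 thymic Ad IIa nuclei with pan-endothelial RNA (29.1%), against 91.4% of thymic Ad Ia and 51.0% of Ad Ib nuclei. Of the epigonadal nuclei 511 of 580 such nuclei carried one (88.1%), against 98.1% of Ad Ia and 89.5% of Ad Ib nuclei. Unlabelled barcodes carried one in 8.85% of cases in the thymic library (median 308 UMIs) and in 73.4% in the epigonadal library (median 794 UMIs). Thymic Ad IIa nuclei thus carried endothelial RNA in nearly every case and adipocyte RNA in fewer than 1 in 3, while most epigonadal Ad IIa nuclei carried both, in a library where most unlabelled barcodes also carried adipocyte RNA. The part of free RNA in these shares was not tested.

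**Figure D2:**
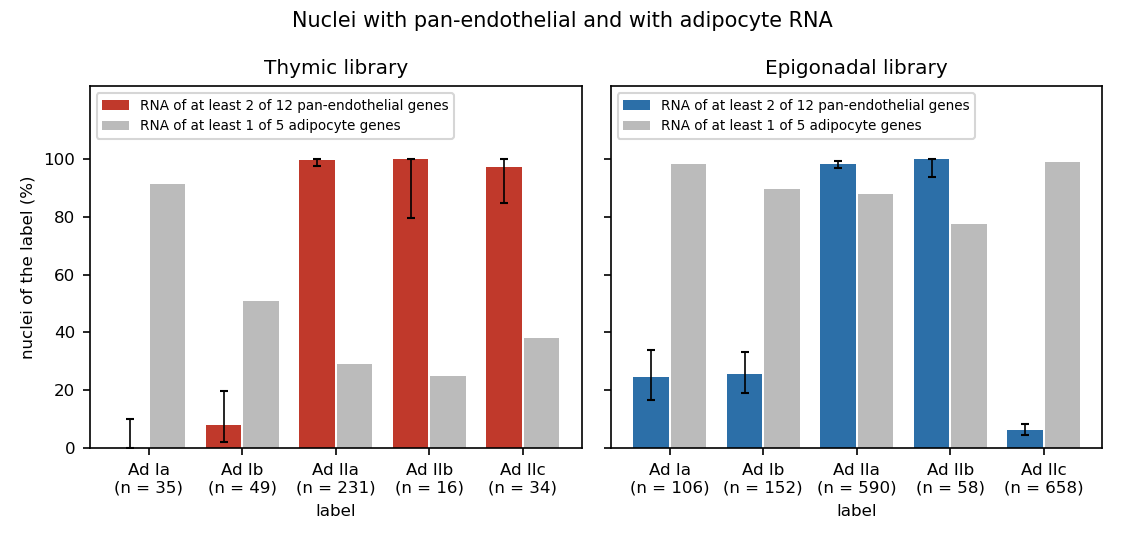
Share of nuclei in each label (x axis) that carried RNA of at least 2 of 12 pan-endothelial genes (coloured bars, with exact binomial 95% intervals) and of at least 1 of 5 adipocyte genes (grey bars), for the thymic (left) and epigonadal (right) library. Pan-endothelial RNA is near 100% in Ad IIa and Ad IIb of both libraries and in thymic Ad IIc, and at 6.38% in epigonadal Ad IIc.

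Within Ad IIa, few endothelial genes differed by 2-fold between thymus and epigonadal fat. Of 33 members with at least 10 UMIs over both libraries, 1 was at least 2-fold higher in the thymic library and 3 were lower, against a background of 5.44% of all genes higher and 16.2% lower. Counts of 1 and 3 are too small to set the members apart from all genes. By counting error alone, 14 of the 33 intervals lay above 0 and 2 below, and the share of all genes was not computed. The median log2 ratio was 0.16, and −0.02 over all genes. The 7 members under the minimum were Gja4, Gja5, Ackr1, Prox1, Lyve1, Pdpn and Mmrn1.

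The member that was higher in the thymic library was Efnb2, the arterial ephrin ligand, at 386 CPM (155 UMIs) against 163 CPM (202 UMIs), a log2 ratio of 1.24 (0.93 to 1.55). Over the 7 alternative settings its log2 ratio ranged from 1.18 to 1.25. Efnb2 was found in 83 of 231 thymic Ad IIa nuclei (35.9%) and 135 of 590 epigonadal ones (22.9%). Median depths were 1696 and 1916 UMIs. An Efnb2 UMI was seen in 0.912% of epigonadal Ad IIc nuclei, which had little endothelial RNA and a median of 714 UMIs. It was also seen in 0.445% of unlabelled thymic barcodes (99 barcodes, median 308 UMIs), but 58 of those held at least 2 pan-endothelial genes. Emcn came next, at 894 CPM against 477 CPM, a log2 ratio of 0.91 (0.71 to 1.10), short of the 2-fold limit. The receptors Tie1 (0.69, 0.34 to 1.03) and Adgrl4 (0.59, 0.47 to 0.71) were also higher in the thymic library by less than 2-fold. All 6 receptors were above 0, with a group median of 0.41.

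Lower in the thymic library were Cldn5, Plvap and Vwf. Cldn5 was at 142 CPM (57 UMIs) against 338 CPM (418 UMIs), 2.36-fold lower, with a log2 ratio of −1.24 (−1.68 to −0.85). A Cldn5 UMI was found in 18.6% of thymic and 40.7% of epigonadal Ad IIa nuclei, whereas Cdh5, the junction gene measured in the same nuclei, was found in 68.4% and 62.4%. The log2 ratio of Cdh5 was 0.36 (0.17 to 0.55), on the other side of 0 from Cldn5. Plvap, the protein of the diaphragms of fenestrated capillaries, had 1 UMI in thymic Ad IIa and 40 UMIs (32.3 CPM) in epigonadal Ad IIa, a log2 ratio of −3.13 (−9.04 to −1.14). Vwf had 2 UMIs and 20 UMIs, with an interval that included 0 (−4.84 to 0.34). Plvap and Vwf rest on 1 and 2 thymic UMIs. Beside these values, adipocyte markers summed to 414 CPM in the thymic and 5850 CPM in the epigonadal nuclei, fibroblast markers to 4.98 CPM and 225 CPM and mitochondrial RNA to 12.8% and 4.91%. Erythroid markers summed to 521 CPM and 133 CPM (4 of 4 measured at least 2-fold higher in the thymic nuclei, median log2 ratio 1.93), and T cell markers to 291 CPM and 137 CPM (2 of 3 higher, median 3.06). Mural markers summed to 67.3 CPM and 213 CPM and macrophage markers to 244 CPM and 224 CPM, with 4 of 5 measured lower in each list. With genes at 0 UMIs on one side at their bound, 2 of 5 mural and 3 of 5 macrophage markers were lower. The part of these in the differences was not tested, and tissue and library cannot be told apart.

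**Figure D3:**
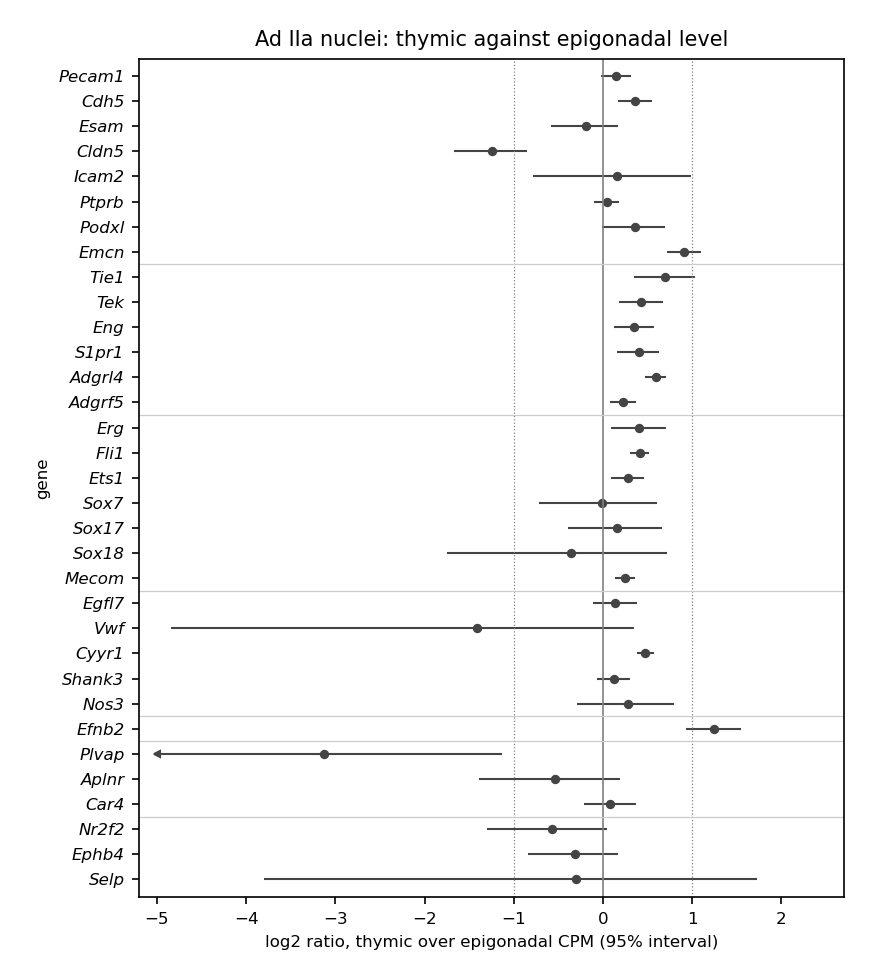
Log2 ratio of CPM in thymic over epigonadal Ad IIa nuclei for the 33 members with at least 10 UMIs, grouped by role; lines are 95% intervals, the arrow marks an interval that runs off the axis, and dotted lines mark 2-fold. Efnb2 lies above the upper dotted line, and Cldn5, Plvap and Vwf below the lower one.

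Genes of single vessel beds were present in Ad IIa to different degrees. Among pan-endothelial thymic Ad IIa nuclei, a capillary gene (Plvap, Aplnr or Car4) was found in 102 of 230 (44.3%, 37.8% to 51.0%), an arterial gene in 83 (36.1%, 29.9% to 42.7%), and a venous gene in 48 (20.9%, 15.8% to 26.7%). A lymphatic gene was found in 0 of 230, which allows a share of up to 1.59% with a UMI and does not limit the share that express one. The epigonadal shares were 50.5% capillary, 23.4% arterial, 32.9% venous and 1.21% lymphatic. When nuclei were thinned to 500 UMIs, arterial RNA was found in 37 of 219 thymic (16.9%) and 41 of 511 epigonadal nuclei (8.02%), capillary RNA in 17.4% and 19.0%, and venous RNA in 8.68% and 9.78%. Arterial RNA was thus more frequent in the thymic library at equal depth, and the venous gap seen without thinning was small after it.

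The capillary share was carried by Car4 and the arterial share by Efnb2. Car4, carbonic anhydrase 4 of the capillary surface, was at 336 CPM (135 UMIs) in thymic and 318 CPM (394 UMIs) in epigonadal Ad IIa, a log2 ratio of 0.08 (−0.21 to 0.36). Aplnr, the apelin receptor, was at 44.8 CPM and 66.3 CPM. The capillary genes other than Plvap thus did not differ by 2-fold. Of the arterial connexins, Gja4 had 0 thymic and 2 epigonadal UMIs in Ad IIa and Gja5 had 0 and 1. Of the venous genes, Ephb4 was at 107 CPM and 134 CPM and Nr2f2 at 59.8 CPM and 90.5 CPM. Selp (P-selectin), the adhesion molecule of activated veins, had 2 and 9 UMIs. Ackr1, a chemokine-binding receptor of venules, had no UMI in any of the 22600 thymic barcodes and 2 in epigonadal Ad IIa.

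The lymphatic genes were at or near 0 in the labelled nuclei. Prox1, the regulator of lymphatic fate, had 0 UMIs in thymic Ad IIa and 4 in epigonadal Ad IIa, all in 1 nucleus, and 1 UMI was found in thymic Ad IIb. Lyve1 (a hyaluronan receptor), Pdpn (podoplanin) and Mmrn1 (a secreted multimerin) had no UMI in thymic Ad IIa and 5, 2 and 5 in epigonadal Ad IIa. A level of up to 7.47 CPM is allowed by 0 UMIs in thymic Ad IIa. The labelled nuclei thus held blood vessel RNA with next to no lymphatic RNA.

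Markers of different beds occurred in the same nuclei. In thymic Ad IIa, Car4 was found in 92 of 231 nuclei and Efnb2 in 83, with both in 38. In epigonadal Ad IIa they were found in 242 and 135 of 590 nuclei, with both in 81. Sox17, a SOXF factor of arteries, shared 11 of its 36 thymic nuclei and 49 of its 89 epigonadal nuclei with Car4. It shared 2 and 16 of them with Nr2f2, which was found in 19 thymic and 83 epigonadal nuclei. Of 26 epigonadal Ad IIa nuclei with Plvap, 8 held Car4 and 1 held Sox17. The arterial Efnb2 and its venous receptor Ephb4, which was found in 32 and 131 nuclei, were found together in 17 thymic and 35 epigonadal Ad IIa nuclei. Nuclei with a UMI of 1 bed gene thus sometimes held another, to a degree that differed between pairs. Whether these overlaps differ from those of unrelated genes was not tested, nor was the part of free RNA.

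Ad IIb of the epigonadal library held more Gja5, Plvap, Efnb2 and Podxl and less Car4 than Ad IIa. This comparison was added after the levels had been seen. Among epigonadal nuclei 7 of 34 members were at least 2-fold higher in Ad IIb and 2 lower, against a background of 10.3% higher and 15.5% lower. In the thymic library, with 16 Ad IIb nuclei, 2 of 30 were higher and 4 lower, against 20.4% and 17.2%. The thymic share of higher members thus lay under the background. The members' medians were 0.31 and 0.11 on the log2 scale, and all genes were at 0.00 and 0.15. Scaling with TMM factors lowered every thymic log2 ratio of this comparison by 0.47, and the epigonadal ones by 0.08.

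In the epigonadal library, where Ad IIb had 58 nuclei, the arterial connexin Gja5 had 15 UMIs in Ad IIb (107 CPM) and 1 UMI in Ad IIa (0.808 CPM), a log2 ratio of 6.51 (4.34 to 12.44). Plvap was at 313 CPM in Ad IIb and 32.3 CPM in Ad IIa, a log2 ratio of 3.27 (2.62 to 3.93), and was found in 22 of 58 Ad IIb nuclei (37.9%) and 26 of 590 Ad IIa nuclei (4.41%). Efnb2 was at 433 CPM against 163 CPM (1.42, 0.97 to 1.83), Podxl at 490 CPM against 188 CPM (1.39, 0.98 to 1.78) and Sox17 at 192 CPM against 97 CPM (1.0, 0.32 to 1.60). Genes of arteries were thus among those higher in Ad IIb, together with Plvap. Vwf (56.8 CPM against 16.2 CPM) and Icam2 (78.2 CPM against 36.4 CPM) were the other 2 of the 7. Car4 went the other way, at 49.7 CPM in Ad IIb against 318 CPM in Ad IIa, 5.98-fold lower, with a log2 ratio of −2.58 (−4.00 to −1.62). Sox7 was also lower, on 4 UMIs in Ad IIb, with an interval that included 0 (−3.18 to 0.14).

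The thymic library had fewer UMIs, and Sox17 and Car4 were the members called in the same direction in both libraries. Each call is lost under 1 setting, since epigonadal Sox17 was at 0.93 with TMM factors and thymic Car4 at −0.91 with 5 UMIs added. Sox17 was at 333 CPM (9 UMIs) in thymic Ad IIb against 107 CPM (43 UMIs) in Ad IIa, a log2 ratio of 1.70 (0.41 to 2.69), and 1.23 with TMM factors. Car4 had 0 UMIs in Ad IIb and 135 UMIs in Ad IIa, at least 3.03-fold lower. Gja5 and Plvap had 2 UMIs each in the 16 thymic Ad IIb nuclei, against 0 and 1 UMIs in the 231 Ad IIa nuclei. Efnb2 was at 518 CPM against 386 CPM, a log2 ratio of 0.47 that fell to −0.0019 with TMM factors. Adgrl4 was lower, at 999 CPM against 2102 CPM (−1.05, −1.68 to −0.52), and Fli1 was at 1369 CPM against 2466 CPM (−0.83, −1.36 to −0.38). The same genes had epigonadal log2 ratios of −0.55 and −0.51. The 2 thymic members called lower besides Adgrl4 and Car4, Aplnr and Nr2f2, had 0 UMIs in Ad IIb against 18 and 24, which gives no fold at this depth, and Sox18 was called higher on 2 UMIs. Cyyr1 had log2 ratios of 0.12 (−0.22 to 0.42) for thymic nuclei and −0.0022 (−0.18 to 0.17) for epigonadal nuclei, and Tek of 0.02 (−0.97 to 0.77) and 0.10 (−0.34 to 0.50). The macrophage list summed to 629 CPM in thymic Ad IIb and 244 CPM in Ad IIa, with Mertk the only 1 of 8 detected in Ad IIb. Thymic mural markers summed to 222 CPM (6 UMIs) and 67.3 CPM, and T cell markers to 111 CPM (3 UMIs) and 291 CPM. In the epigonadal labels the adipocyte list summed to 2721 CPM and 5850 CPM, the fibroblast list to 121 CPM and 225 CPM and the macrophage list to 355 CPM and 224 CPM. The part of these lists was not tested.

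**Figure D4:**
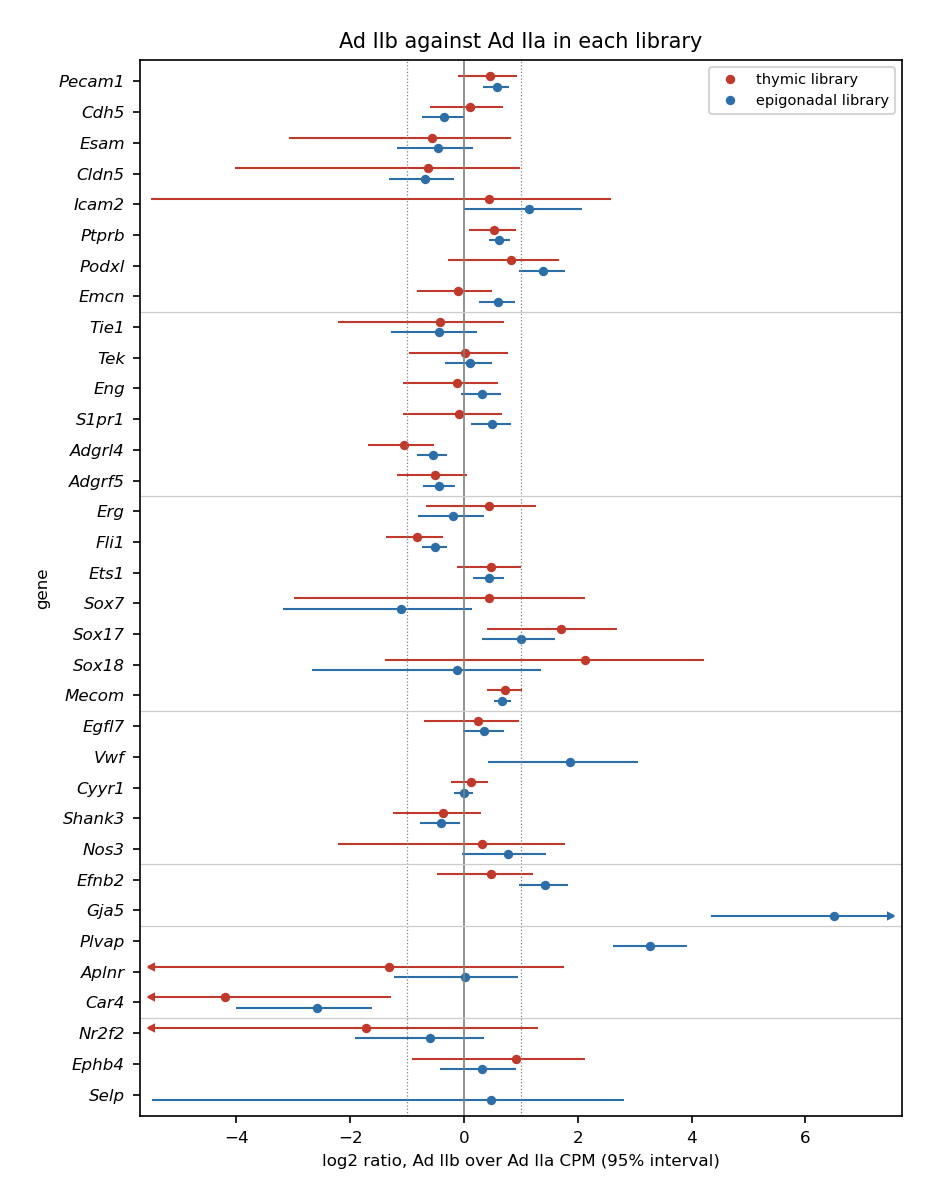
Log2 ratio of CPM in Ad IIb over Ad IIa for members with at least 10 UMIs, in the thymic (red) and epigonadal (blue) library; lines are 95% intervals, arrows mark intervals that run off the axis, and dotted lines mark 2-fold. Gja5, Plvap, Efnb2, Podxl and Sox17 lie to the right in the epigonadal library and Car4 to the left in both.

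Against Ad I, Ad IIb was high in both libraries. Among thymic nuclei 19 of 19 members were at least 2-fold higher, against a background of 26.6% higher and 24.8% lower, with a median of 3.34 (2.89 with the 3 members that had 0 UMIs in Ad I at their bound). In the epigonadal library 30 of 32 were higher and none lower, against 19.6% and 21.2%, with a median of 2.52. Mecom was at 3590 CPM in thymic and 2927 CPM in epigonadal Ad IIb, with log2 ratios over Ad I of 3.70 (2.93 to 4.67) and 3.36 (3.01 to 3.74). Car4 and Sox7 were the 2 epigonadal members short of the limit. Of the adipocyte markers, 7 of 7 measured were lower than in Ad I in the thymic library (median −4.54, or −2.65 with the 3 genes at 0 UMIs in Ad IIb at their bound) and 8 of 10 in the epigonadal library (−2.13, or −1.46 with the 1 gene at 0). Epigonadal macrophage (4 of 5 lower), mural (4 of 5), fibroblast (4 of 4) and erythroid markers (4 of 4) were lower too. Malat1 made up 1.53% of nuclear-encoded UMIs in thymic and 1.17% in epigonadal Ad IIb, against 5.82% and 4.10% in Ad I. Ribosomal protein genes made up 2.06% and 2.498%, against 1.35% and 1.89% in Ad I. The part of these markers and shares was not tested. These comparisons share their Ad I nuclei with those of Ad IIa and Ad IIc.

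Ad IIc carried the same label in both libraries but differed in its endothelial levels. In the thymic library 21 of 21 members were at least 2-fold higher than in Ad I, against a background of 29.6% higher and 25.9% lower. In the epigonadal library none of 25 was higher and 16 were lower, against 24.3% higher and 37.5% lower. Thymic Ad I held only 135 member UMIs against 956 in Ad IIc, so members passed the minimum mostly through Ad IIc, as they did through Ad IIb in the comparison above, and these counts are a description. The medians were 2.5 and −1.57 on the log2 scale, with all genes at −0.05 and −0.40. TMM factors raised every epigonadal ratio of this comparison by 0.60, to a median of −0.97 with 1 member higher. Cdh5 was at 829 CPM in thymic and 58.1 CPM in epigonadal Ad IIc, Pecam1 at 903 CPM and 48.4 CPM, and Emcn at 1032 CPM and 21.3 CPM. Mecom, at 1308 CPM and 40.7 CPM, was 6.87-fold lower in epigonadal Ad IIc than in Ad I. Nr2f2, at 38.7 CPM, was the only epigonadal member above its Ad I level, with a log2 ratio of 0.69 (−0.60 to 2.37). Sox17 had 1 UMI in thymic Ad IIc, while Car4 was at 350 CPM there, close to thymic Ad IIa.

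Markers of other cells differed strongly between the 2 Ad IIc labels. The 10 adipocyte markers summed to 774 CPM in thymic Ad IIc, where 6 were detected and Plin1, Plin4, Lep and Acvr1c were at 0, and to 28998 CPM in epigonadal Ad IIc, where all 10 were detected. The 5 erythroid markers, led by the haemoglobin gene Hbb-bs at 9085 CPM, summed to 25948 CPM in thymic Ad IIc and 393 CPM in epigonadal Ad IIc, against 521 CPM in thymic Ad IIa. Nuclear and ribosomal RNA differed as well. Malat1, a long non-coding RNA kept in the nucleus, made up 1.42% of nuclear-encoded UMIs in thymic and 0.174% in epigonadal Ad IIc, against 5.82% and 4.10% in Ad I of the same libraries. Ribosomal protein genes made up 4.78% and 7.64%, against 1.35% and 1.89% in Ad I. Their part in the difference was not tested.

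A further 40 endothelial genes outside the members, a list that was also chosen with earlier results known, were measured beside them. In thymic Ad IIa over Ad I, 24 of 30 measured were at least 2-fold higher and 2 lower, against 28.2% and 20.2% of all genes. The median was 1.72 (20 higher and a median of 1.48 with genes at 0 UMIs on one side at their bound). In the epigonadal library 29 of 34 were higher and 2 lower, against 19.8% and 17.5%, with a median of 2.16. The UMIs of this list came mostly from Ad IIa (4721 against 142 in thymic Ad I, and 11640 against 646 in epigonadal Ad I). These counts are thus a description too. With 0.5 UMI added the highest in the thymic library were 3 genes with 0 UMIs in Ad I, whose order is not fixed at this depth, namely Rasip1 (80 UMIs, at least 3.47-fold), Robo4 (60 UMIs, at least 2.6-fold) and Ramp2 (38 UMIs, at least 1.65-fold). Highest in the epigonadal library were Gpihbp1, the capillary anchor of lipoprotein lipase (546 UMIs against 5), Ushbp1 (521 UMIs against 9) and Calcrl (248 UMIs against 5). Mcam, which mural cells also express, was lower in Ad IIa in both, with log2 ratios of −2.94 and −2.07, as was the Notch ligand Jag1 in the thymic library (−1.78). Between the tissues, Dll4, an arterial Notch ligand, was higher in thymic Ad IIa (34 UMIs against 47, log2 1.16), Calcrl (0.96) and Gata2 (0.69) came next, and Rbp7 (−1.23) and Jag1 (−0.79) were lower. Vcam1, a leukocyte adhesion molecule, had 0 thymic and 14 epigonadal UMIs in Ad IIa, at least 1.51-fold lower. In Ad IIb over Ad IIa, Hey1, a Notch target of arteries, was the highest in the epigonadal library (8 UMIs against 17, log2 2.09) and Nrp2, a co-receptor of veins and lymphatics, the lowest (−0.91, and −1.55 in the thymic library). Between the tissues Dll4 and Jag1 thus lay on opposite sides of 0. In epigonadal Ad IIb over Ad IIa, Jag1 was at 1.35, on the same side as Hey1.

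Barcodes without a label also held endothelial RNA. At least 2 of the 12 pan-endothelial genes were found in 585 of 22235 unlabelled thymic barcodes (2.63%) and in 716 of 3479 unlabelled epigonadal ones (20.6%). These held 45.1% and 84.3% of all member UMIs outside the labels. Most barcodes with Lyve1 or Pdpn held fewer than 2 of these genes. Of 51 unlabelled epigonadal barcodes with Lyve1, which macrophages also express, 31 held at least 2 macrophage markers (60.8%, against 11.2% of all unlabelled barcodes), and 3 held 2 pan-endothelial genes. Of 28 with Pdpn, which fibroblasts also express, 25 held at least 2 fibroblast markers (89.3%, against 13.2%), and 1 held 2 pan-endothelial genes. In the thymic library Lyve1 was found in 18 and Pdpn in 17 unlabelled barcodes, with 0 of either also holding 2 pan-endothelial genes. Of these thymic barcodes, 6 of 18 with Lyve1 held at least 2 macrophage markers (33.3%, against 0.310%) and 11 of 17 with Pdpn at least 2 fibroblast markers (64.7%, against 0.436%). Prox1 was in 2 thymic barcodes, of which 0 held 2 pan-endothelial genes, and in 5 epigonadal ones, of which 3 did. Of these 5, 3 held at least 2 fibroblast markers (60%) and 2 at least 2 macrophage markers (40%). Mmrn1 was in 4 thymic barcodes, of which 0 did, and in 3 epigonadal ones, of which 2 did. Whether these barcodes hold more than 1 cell was not tested. Barcodes with Pdpn were deeper than all unlabelled barcodes in both libraries, with medians of 2239 UMIs against 308 (thymic) and 2613 UMIs against 794 (epigonadal), and those with Lyve1 had medians of 309.5 and 1071 UMIs.

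In the 6-month thymic chromatin data the members passed 1.5-fold between thyAD II and thyAD I at shares near those of all genes. These data give the positions where a transposase cut open DNA. Of 101060606 fragments, 4397902 (4.35%) belonged to the 317 nuclei with a complete row in the authors' table, 146 of them labelled thyAD I, 140 thyAD II and 31 Immune. The table stops inside a row, so nuclei beyond it were not used. A gene's window was its body extended by 2 kb at both ends, and fragments in it are given per 1000000 fragments of the label (FPM). Windows of 10 members reach another protein-coding gene, namely those of Esam, Icam2, Ptprb, Tek, Eng, Egfl7, Nos3, Plvap, Ackr1 and Selp. The part of these neighbours in the values below was not tested. In thyAD II over thyAD I, 4 of 36 members with at least 20 fragments were at least 1.5-fold higher and 1 lower, against a background of 9.18% higher and 5.9% lower. The median log2 ratio was 0.10, and 0.02 over all genes. Of the other endothelial genes, 6 of 32 measured were higher and 0 lower, with a median of 0.13. Of their intervals, 4 lay above 0 and 1 below.

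Cldn5 (chromosome 16, 18776847 to 18778262, GRCm38) was the only 1 of the 36 measured members whose interval excluded 0. It had 28 fragments in thyAD II (12.8 FPM) and 6 in thyAD I (3.64 FPM), a log2 ratio of 1.72 (0.51 to 3.37). The intervals are not adjusted for the number of members, and the share of all genes whose interval excluded 0 was not computed. Of the 28 fragments, 24 lay within 1 kb of the RefSeq start whose upstream sequence is printed above, against 6 of 6 in thyAD I. Immune nuclei had 1 fragment in the window. Tek (0.71, −0.07 to 1.57), Gja4 (0.84, −0.54 to 2.56) and Prox1 (0.61, −0.33 to 1.67) were the other members past 1.5-fold, and Icam2 (−0.81, −2.04 to 0.35) was lower. Pecam1 was at 53.4 and 44.3 FPM, Cdh5 at 6.39 and 9.11, Erg at 31.5 and 27.3 and Mecom at 225 and 244. None of these 4 genes passed 1.5-fold. The names of the chromatin labels differ from those of the RNA labels, and no map between them was used here.

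Within thyAD II, which is made of joint clusters 0 and 4 of the authors' table, 1 of 26 members was higher in cluster 0 and 4 were lower, against 8.98% and 7.0%. Tek was at 34.6 FPM in cluster 4 (30 fragments) and 10.6 in cluster 0 (14 fragments), a log2 ratio of cluster 0 over cluster 4 of −1.68 (−2.74 to −0.75). Cldn5 was at 20.7 (18 fragments) and 7.57 (10 fragments), a log2 ratio of −1.42 (−2.73 to −0.26). Of the 4 members past 1.5-fold in thyAD II over thyAD I, Cldn5 and Tek were thus higher in cluster 4, while Prox1 (−0.51, −1.66 to 0.65) did not pass 1.5-fold and Gja4 was under the minimum. Shank3 (−0.72) and Lyve1 (−0.97) were lower with intervals that included 0, and Selp was higher in cluster 0 (1.27, 0.11 to 2.78). Within thyAD I, 8 of 21 members were higher in cluster 1 than in cluster 3 and 3 lower, against 11.6% and 11.2%. The highest was Podxl, with 36 fragments against 3 (2.28, 0.82 to 4.82). The intervals of Pecam1 (0.93, 0.11 to 1.93) and Ets1 (0.76, 0.16 to 1.45) also lay above 0, while Eng (−1.88, −3.37 to −0.56) and Adgrf5 (−1.44, −2.74 to −0.21) were lower. Cluster 3 held 61 nuclei with 522549 fragments and cluster 1 held 85 with 1124353. Over the same windows, T cell markers had a median log2 ratio of 0.85 in cluster 1 over cluster 3, with 4 of 5 measured genes higher; their part was not tested.

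Against the Immune nuclei, a comparison added after the data were seen, 8 of 31 members were higher in thyAD II and 8 lower, against 21.4% and 14.8%. Lower in thyAD II were Ets1 (63.9 against 217 FPM, −1.77, −2.13 to −1.40), Fli1 (−1.33), Erg (−1.15), Pecam1 (−0.69), Icam2 (−2.07), Selp (−1.58), and, with intervals that included 0, S1pr1 (−0.83) and Adgrl4 (−0.62). Higher were Nr2f2 (80.8 against 28.5 FPM, 1.46, 0.76 to 2.34), Mecom (0.72, 0.38 to 1.10), Nos3 (0.72, 0.17 to 1.37), Ephb4 (0.97, 0.03 to 2.22), and Cldn5 and Cyyr1, which had 1 and 2 fragments in Immune nuclei. Car4 (0.76) and Pdpn (1.44) were higher with intervals that included 0. Of the other endothelial genes, 10 of 32 measured were higher in thyAD II and 0 lower, against the same 21.4% and 14.8%. All 10 T cell markers were higher in the Immune nuclei, with a median log2 ratio of thyAD II over Immune of −2.54.

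Near gene starts, the 23 members with a RefSeq start had a lower mean than all genes in every label. They include only 2 of the 8 junction and surface genes and 2 of the 7 transcription factors. Over 1 kb on either side of the RefSeq starts of 23 members, the mean was 5.16 FPM per gene in thyAD II, 4.49 in thyAD I and 3.18 in Immune nuclei. The 27025 genes with a start averaged 13.5, 13.9 and 14.1, and the 10 adipocyte markers averaged 45.6, 54.2 and 36.3. Of the 40 other endothelial genes, 28 have a start, and these averaged 13.7, 14.3 and 9.22. The low mean of the members thus did not hold for the other endothelial genes in thyAD II and thyAD I. The medians of the members were 0.913 in thyAD II and 2.43 in thyAD I, against 2.28 and 1.82 over all genes, so the median lay below that of all genes in thyAD II and above it in thyAD I. Efnb2 had 51 and 31 fragments near its start, Mecom 44 and 28, Ephb4 39 and 43 and Egfl7 39 and 21. Erg had 2 and 4, Emcn 0 and 2, and Cyyr1 had none in any label. Fragments near starts thus came largely from Efnb2, Mecom, Ephb4, Egfl7 and Cldn5, while Erg, Emcn and Cyyr1 were at or near 0. Few members reached 20 fragments in these windows. In thyAD II over thyAD I, 2 of 6 were higher (Cldn5 and Shank3) and 0 lower, against 8.98% and 5.73% of all genes. In cluster 0 over cluster 4, 2 of 5 were higher (Egfl7 and Efnb2) and 1 lower (Cldn5), against 14.6% and 6.19%. In cluster 1 over cluster 3, 3 of 4 were higher (Mecom, Efnb2 and Ephb4) and 0 lower, against 9.03% and 17.6%. In thyAD II over Immune nuclei, 3 of 5 were higher (Cldn5, Mecom and Ephb4) and 0 lower, against 20% and 14.2%. The fragments near the Cldn5 start are part of those already counted over its whole window. In the 100 bases before the start, the members had 0.502 cut sites per 1000000 per start in thyAD II and 0.546 in thyAD I, against 2.06 and 2.21 over all genes.

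**Figure D5:**
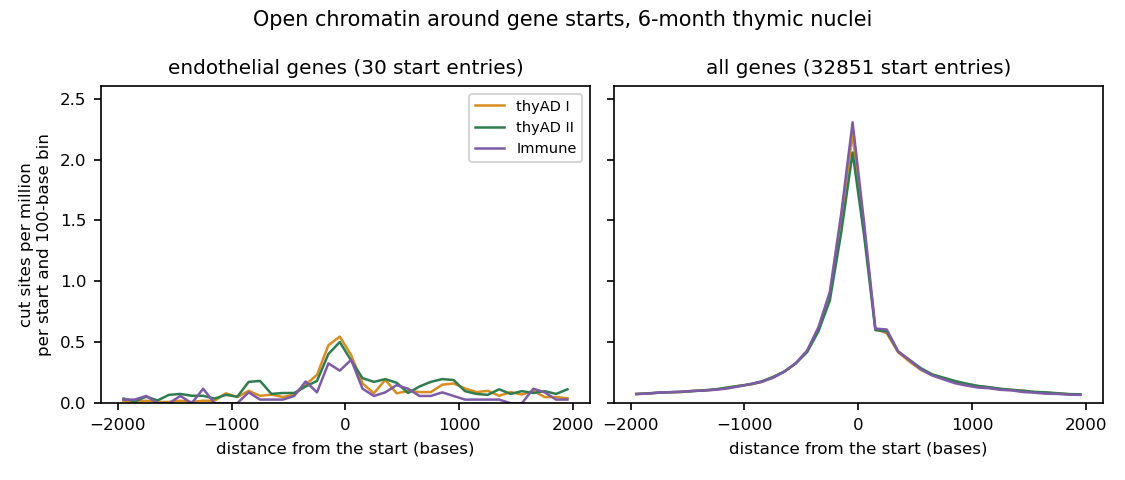
Cut sites per 1000000 per start in 100-base bins (y axis) against distance from the RefSeq start (x axis), for 30 start entries of 23 endothelial genes (left) and all 32851 entries (right), in the 3 labels of the 6-month thymic library. These 23 members peak at 0.546 in thyAD I and 0.502 in thyAD II, and all genes at 2.21 and 2.06.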

How the data were processed

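The RNA tables hold UMI counts per gene and barcode, deposited by the authors as Cell Ranger matrices (version 7.2.0 per the file headers; the submitters' processing notes name Cell Ranger ARC 2.0.2, Seurat 5.1.0 and build mm10). The chromatin file holds fragments with the counts of supporting read pairs, deposited by the authors from cellranger-arc 2.0.2, per the file headers; each fragment was counted once. The authors' labels were taken as deposited; the sources used here do not say how doublets were treated, and no doublet caller was run.

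UMIs were summed per label, mitochondrial genes left out, and scaled to CPM. Log2 ratios add 0.5 UMI to each sum; a gene was measured with at least 10 UMIs over both sides and called at 2-fold, or at least 20 fragments and 1.5-fold in chromatin. A side with 0 UMIs was set to 3 for a bound, and the other side was kept at its observed count, without its counting error. Intervals are exact binomial or Poisson. No p-value was computed, since each group is 1 library. The interval code was tested on simulated data. Analysis used Python 3.11.15, numpy 2.4.6, scipy 1.17.1, pandas 2.3.3 and edgeR 4.0.16 (TMM only). Coordinates are GRCm38, and RefSeq promoters carry GRCm38.p6.

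The members and lists were chosen with earlier results of these data known. Every member is named; of 40 other endothelial genes, those with the 3 highest and 3 lowest ratios qualify in each comparison, and of each cell type list the most abundant. Not every gene that qualifies is described. Comparisons of Ad IIb with Ad IIa and of thyAD II with Immune, and windows at RefSeq starts, were added after seeing the data. RNA of the 6-month library was not used here.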

Additional observations from a re-analysis of the deposited data

Results flagged for a closer look

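Ad IIc differed between the tissues in its endothelial genes. The members' median log2 ratio of Ad IIc over Ad I was 2.5 in the thymic library and −1.57 in the epigonadal library, with all genes at −0.05 and −0.40. In the thymic library 21 of 21 measured members were at least 2-fold higher, against 29.6% of all genes. They passed the minimum mostly through Ad IIc, so this count is a description. In the epigonadal library 24 of 25 measured members were below 0 and 16 at least 2-fold lower, against 37.5% of all genes lower. TMM factors moved the epigonadal median to −0.97. Each value comes from 1 library, and the difference was not tested.

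Endothelial RNA was also found in barcodes that carry no label and enter none of the comparisons between labels. At least 2 of the 12 pan-endothelial genes were detected in 585 of 22235 such barcodes of the thymic library (2.63%) and 716 of 3479 of the epigonadal library (20.6%). The thymic share is within the 10.0% that 0 of 35 labelled Ad Ia nuclei allows, and the epigonadal share lies below the 24.5% of labelled Ad Ia nuclei and above the 6.38% of Ad IIc nuclei. Median UMIs per barcode, mitochondrial ones included, were 308 in the unlabelled and 604 in the Ad Ia barcodes of the thymic library, and 794 in the unlabelled, 1077 in the Ad Ia and 714 in the Ad IIc barcodes of the epigonadal library. Mitochondrial RNA made up 51.2% of UMIs in the unlabelled and 14.2% in the Ad Ia barcodes of the thymic library. In the epigonadal library it made up 10.6% in the unlabelled, 5.31% in the Ad Ia and 6.29% in the Ad IIc barcodes. The shares with pan-endothelial RNA were not compared at equal depth.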

How the results depend on the processing

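No paired analysis was possible because each group is 1 library. Of 196 counts and shares recomputed under alternative settings, 142 stayed within their limits. These include chromatin counts from nuclei with at least 3000 fragments. That setting removed no nucleus (146 of 146 kept in thyAD I and 140 of 140 in thyAD II), so its counts could not move. The causes of the changes were not tested, except that fewer or more genes are measured under another minimum.

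With 5 UMIs added, the thymic log2 ratios of Ad IIa over Ad I turned to −0.87 for Icam2, −0.26 for Sox7, −0.0034 for Nos3 and −0.67 for Nr2f2. Of 29 members 1 was lower, against 52.5% of all genes. Thymic ratios of Ad IIb over Ad IIa turned to 1.69 for Aplnr and 1.36 for Nr2f2. Of 30 members 9 were higher and 0 lower there, against 76.3% and 0.315% of all genes. In the epigonadal library 1 of 34 was lower in Ad IIb than in Ad IIa, against 0.516%. With no minimum, 2 of 34 thymic and 3 of 40 epigonadal members were lower in Ad IIa than in Ad I, against 41.5% and 36.2%. Members lower in thymic than in epigonadal Ad IIa were 6 of 40, against 16.2%. Higher in thymic Ad IIb than in Ad I were 33 of 37, against 25.4%. Lower than in Ad I were 1 of 36 in epigonadal Ad IIb and 1 of 31 in thymic Ad IIc, against 25.6% and 34.8%. Higher in thymic Ad IIb than in Ad IIa were 8 of 36, against 47.9%. With a minimum of 50 UMIs, 1 of 29 members was lower between the tissues (Cldn5), against 10.5%. Higher in Ad IIb than in Ad I were 4 of 4 thymic and 17 of 17 epigonadal members, against 38.5% and 22.9%. In Ad IIc over Ad I, 9 of 9 thymic members were higher and 7 of 9 epigonadal members lower, against 45.8% and 33.9%. In thymic Ad IIb over Ad IIa 1 of 23 was higher and 2 lower, against 7.52% and 13.9%. TMM factors and equal weight per nucleus each gave 1 of 25 members higher in epigonadal Ad IIc, against 34.7% and 25.2% of all genes. TMM factors gave 7 of 30 lower in thymic Ad IIb over Ad IIa, against 29.8%.

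Shares of Ad IIa nuclei after thinning to 500 UMIs were 96.5% thymic and 89.3% epigonadal with pan-endothelial RNA, and among these 16.9% and 8.02% arterial, 17.4% and 19.0% capillary, 8.68% and 9.78% venous and, in the epigonadal library, 0.391% lymphatic. Asking for 1 or 3 genes in place of 2 gave 99.7% and 93.7% in the epigonadal library.

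In chromatin, windows of 1 kb around both gene ends gave 1 of 9 members higher and 2 lower in thyAD II over thyAD I. All genes were at 9.85% and 6.23%. With no minimum 2 of 40 members were lower, against 17.4%. Around RefSeq starts, where the shares of all genes are given above, 2 of 6 were higher and 0 lower. Cluster 0 over cluster 4 had 2 of 36 higher and 9 lower by cut sites, against 11.9% and 10.3%. Around gene ends 2 of 6 were higher and 2 lower, against 14.1% and 6.61%. With no minimum these were 3 and 11 of 40, against 23.6% and 24.5%, and around starts 2 and 1 of 5. Cluster 1 over cluster 3 had 2 of 5 higher and 0 lower around gene ends, against 9.49% and 17.4%, and 3 and 0 of 4 around starts. With no minimum 8 of 39 were lower, against 23.0%. thyAD II over Immune had 4 of 6 higher and 0 lower around gene ends, against 21.5% and 13.7%, and 3 and 0 of 5 around starts.

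TMM factors moved all log2 ratios over Ad I by 0.41 for thymic Ad IIa, 0.15 for epigonadal Ad IIa, −0.48 for thymic Ad IIb, −0.19 for epigonadal Ad IIb and 0.60 for epigonadal Ad IIc.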
